A study of Danio rerio with 4 samples.

Results

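The genes vox, vent and ved encode homeodomain transcription factors of the zebrafish (Danio rerio) embryo that repress the dorsal programme. They were taken as the RefSeq rows of the deposited expression table that carry these symbols, together with any long-read transcript model naming one of them as its reference gene. Each symbol had 1 row, so 3 of 14777 named RefSeq genes, and 3 of 32575 transcripts, are described. No long-read model named any of them.

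The series holds 4 samples of pooled wild-type embryos from natural spawnings of AB, TAB14 or TAB5 adults. A long-read PacBio library came from 15 embryos that had received 0.2 nmol of α-amanitin by injection at the first cleavages. This toxin inhibits RNA polymerase and so blocks transcription of the zygotic genome. Untreated embryos, again 15, gave the second long-read library. Both are labelled 6 hours post fertilization (hpf), but their source names differ, with the 256-cell stage for the α-amanitin embryos and epiboly for the untreated ones. The 2 short-read samples, from about 20 untreated embryos each at 2.5 and 5.25 hpf, are tied to no table by the labels.

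The expression table has an α-amanitin column and a control column, in units of log2(TPM + 1), where TPM is the abundance of a transcript scaled to a fixed total, a level corrected for transcript length. Which reads were quantified is not stated. Should they be the short-read libraries, for which the labels give no injection, the contrast is one of stages and not of treatment. There was 1 column per group, so no difference below has a replicate check, a p-value or an error, and the depth is unknown. In such pools, fewer cells expressing a gene and less RNA per cell cannot be told apart. The columns were checked against stage markers, which cannot tell a contrast of treatment from one of stage. Of 7 maternal genes found in the table, 6 were at least 2-fold higher in the α-amanitin column (btg4 had 911 TPM there and 18.3 TPM in the control column). All 8 gastrula genes, among them sox32 and mixl1, were at least 32-fold lower in the α-amanitin column. Over all RefSeq genes, 25.6% were at least 2-fold higher and 1.94% at least 32-fold lower. The gastrula genes tbxta, tbx16, gsc, chrd, noto and mixl1 are counted again in the gene lists below, so check and lists are not separate evidence. The 7 maternal genes all had long-read models in both libraries, so their RefSeq rows may lack reads assigned to the long-read transcripts. None of the gastrula genes had a model.

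In the early zebrafish embryo the ventral side is set by bone morphogenetic protein (BMP) and Wnt8 signals, and the dorsal side by maternal β-catenin, which switches on organizer genes. Vox and Vent are expressed outside the organizer and hold organizer genes such as gsc, chrd, noto and dharma in check. Dharma, itself a homeodomain repressor made on the dorsal side, represses vox and vent in turn. Ved acts redundantly with both, and embryos that lack Vox and Vent become dorsalized. The maternal factors Pou5f3 and Runx2b take part in switching these genes on, and Wnt8 and BMP signals maintain them.

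All 3 repressor genes were abundant in the control column and close to 0 in the α-amanitin column. The ved row (NM_183074), for the member that acts redundantly with the other two, had 0.742 TPM in the α-amanitin column, against 674 TPM in the control column. The vox row (NM_131698) had 1.41 TPM in the α-amanitin column, against 439 TPM in the control column. The vent row (NM_131700), for the close relative of vox, had 0.348 TPM in the α-amanitin column, against 177 TPM in the control column. The highest of the 3 α-amanitin values thus lay far below the lowest of the 3 control values. Summed, the 3 genes came to 2.50 TPM in the α-amanitin column and 1291 TPM in the control column, which leaves 0.193% of the control level.

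**Figure D1:**
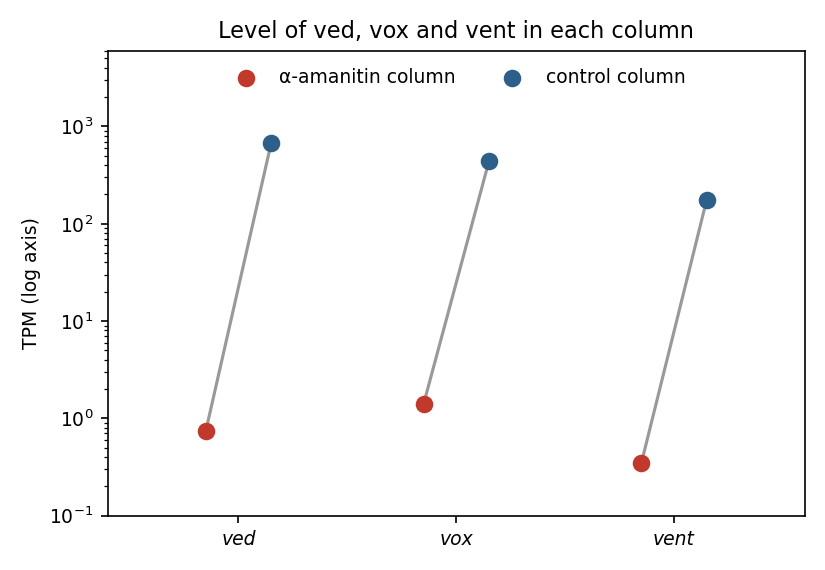
TPM (log axis) of ved, vox and vent in the α-amanitin column (red, left of each pair) and in the control column (blue), 1 value per column, joined by a line. The red points lie between 0.348 and 1.41 TPM, the blue points between 177 and 674 TPM.

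On the log2(TPM + 1) scale, the difference α-amanitin minus control was −8.60 for ved, −7.52 for vox and −7.05 for vent. The pseudocount of 1 TPM understates the change of genes this low in 1 column. As a ratio of TPM values, the α-amanitin level was 0.110% of the control level for ved, 0.320% for vox and 0.196% for vent. These ratios correspond to a control value 908 times the α-amanitin value for ved, 313 times for vox and 509 times for vent. The order of vox and vent therefore depended on the scale: vox had the more negative difference with the pseudocount of 1 TPM, and vent the smaller remaining share without it. On both scales ved came first.

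At least a 2-fold lower value in the α-amanitin column was found for 3 of 3 members, against 22.5% of the 14777 RefSeq genes (25.6% of which were at least 2-fold higher). Of the 7230 RefSeq genes that, like the members, have no long-read model in either library, 26.0% were at least 2-fold lower. At least a 32-fold lower value was also found for 3 of 3, against 1.94% of the RefSeq genes. Among the 708 RefSeq genes of at least 100 TPM in the control column, a level the members share, it was 17.9%. The share among those of the 708 with no model in either library was not counted directly, but it is far higher than 17.9%. Of the 127 genes at least 32-fold lower, only 35 were named by a model of either library. Of the other 581, models of the α-amanitin library by themselves already named 496. Among genes of this level with no model, those at least 32-fold lower therefore outnumbered the rest. For genes like the members in level and in lacking a model, such a difference was thus the more frequent outcome. The median difference of the 3 was −7.52, and that of all RefSeq genes was 0.00. Among all transcripts, 7106 (21.8%) were at least 2-fold lower and 9541 (29.3%) at least 2-fold higher in the α-amanitin column. With the columns scaled so that transcripts reaching 1 TPM in both have a median difference of 0, a shift of 0.47 on the log2 scale, these counts were 9551 lower and 7166 higher. Relative to that shift, the differences were −9.06 for ved, −7.98 for vox and −7.51 for vent.

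Ranked by difference from the most negative, ved stood at position 15, vox at 47 and vent at 70 of 32575 transcripts. Of the 70 transcripts at or below the value of vent, 49 were RefSeq rows and 21 were transcripts with PacBio (PB) identifiers, assembled from the long reads. Part of this position follows from the high control level, since only a gene with a high control value can differ so far on this scale. Among the 708 RefSeq genes of at least 100 TPM in the control column, 17.9% were at least 32-fold lower in the α-amanitin column and the median difference was −0.99. Within these 708 genes, 31 had a smaller remaining share of the control level than ved, 42 a smaller share than vent and 60 a smaller share than vox.

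**Figure D2:**
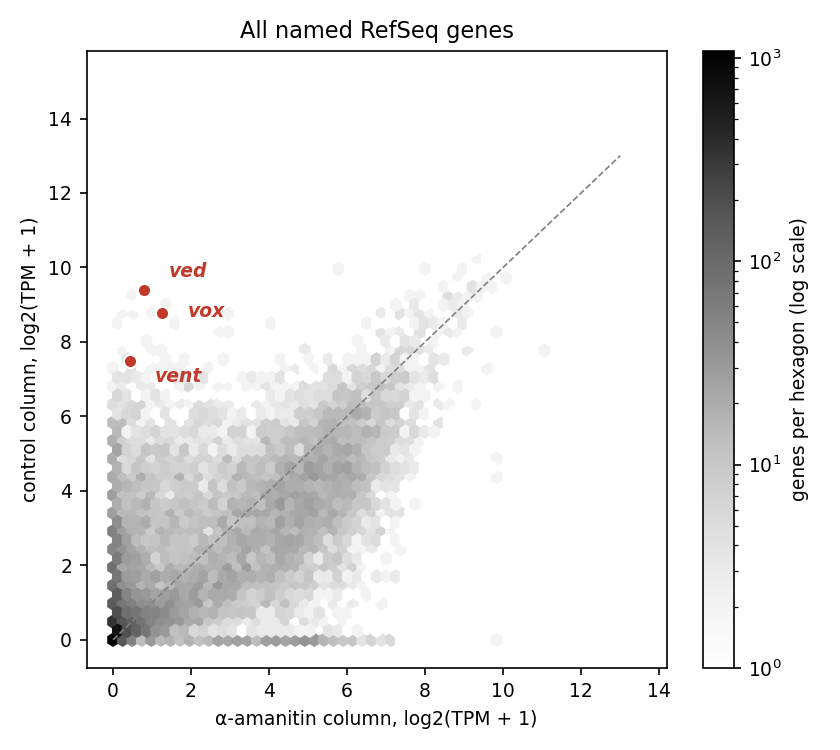
Level in the α-amanitin column (x axis) and in the control column (y axis), both as log2(TPM + 1), of all named RefSeq genes (grey hexagons, shaded by number of genes on a log scale), with ved, vox and vent in red. The dashed line marks equal levels. The 3 genes lie at the upper left, at x values of 0.80, 1.27 and 0.43 and y values of 9.40, 8.78 and 7.48.

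The balance among the 3 genes also differed between the columns. In the α-amanitin column ved made up 29.7% of their sum, vox 56.3% and vent 14.0%. In the control column ved made up 52.2%, vox 34.0% and vent 13.7%. The level of ved was 0.528 times that of vox in the α-amanitin column and 1.53 times that of vox in the control column. The level of vox was 4.03 times that of vent in the α-amanitin column and 2.48 times in the control column. The α-amanitin shares rest on values of 1.41 TPM or less, and in that column 25.3% of all transcripts had a lower value than vent, 30.3% a lower value than ved and 35.2% a lower value than vox. Whether neighbouring genes in these orders differ beyond the spread between libraries cannot be assessed with 1 column per group.

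The 3 genes were next placed among 26 homeobox genes known from the early embryo. This list was chosen with earlier results of these data known, and the ranks and shares depend on it. The order is that of the RefSeq rows alone, which may lack reads for genes that also have PB transcripts. Of the 26 genes, 5 had a model in the untreated library, nanog and pou5f3 among them. By these rows ved was the most abundant of the 26 in the control column, vox the second and vent the fourth, with nanog between vox and vent at 184 TPM. Below vent came eve1, a ventral and posterior gene under BMP control, at 152 TPM, and noto, the notochord regulator that Vox and Vent repress, at 141 TPM. The 3 repressors together made up 0.474% of the summed TPM of the 26 RefSeq rows in the α-amanitin column and 54.7% in the control column. Both sums include the pou5f3 row, whose limit is given below. In the α-amanitin column vox ranked 10, ved 12 and vent 16 of the 26. The top ranks in that column were those of nanog, with 383 TPM, and pou5f3, with 96.6 TPM, both maternally supplied activators of the zygotic genome.

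By difference, ved (−8.60), vox (−7.52), eve1 (−7.22) and vent (−7.05) had the most negative values of the list. In total, 20 of the 26 genes were at least 2-fold lower in the α-amanitin column, 9 of them at least 32-fold, and both counts include the 3 repressors. The shares among all RefSeq genes were 22.5% at least 2-fold lower, 1.94% at least 32-fold lower and 25.6% at least 2-fold higher. The 1.94% covers genes at all levels, and a gene low in the control column cannot fall 32-fold on this scale. Among genes of at least 100 TPM in the control column the share was 17.9%, and it was far higher among those of them with no model. These statements hold for the 32-fold counts of the lists below too. In the other direction, 3 of the 26 were at least 2-fold higher, which is not more than the share among all genes. Those 3 were the rows of pou5f3, of vsx1 (1.90), a homeobox gene of the early mesoderm and retina, and of nanog (1.05), and under the scaling given above 2 of them stayed past 2-fold. The pou5f3 row was listed at 2.88e-10 TPM in the control column. The α-amanitin library held 4 long-read models of this gene and the untreated library 5. Where a gene has PB transcripts, its RefSeq row may lack reads assigned to them, which was not measured gene by gene. PB transcripts held 58.8% of the summed TPM in the α-amanitin column and 55.6% in the control column. Of the 910 genes at 0 TPM in the control column, 43.1% had a model in the untreated library. The value was 16.8% for the 4164 genes above 0 and under 1 TPM. It was 43.9% for genes at 1 to under 10 TPM and 65.1% for genes at 10 to under 100 TPM. Whether reads of pou5f3 were assigned to PB transcripts was not tested. The pou5f3 difference, 6.61, is that of the row and is not read as a change of the gene. It counts among the 3 rows past 2-fold, and among the 2 under scaling, on that footing. The nanog row (2 α-amanitin models, 1 untreated model) and the vsx1 row (1 α-amanitin model) may lack reads too.

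**Figure D3:**
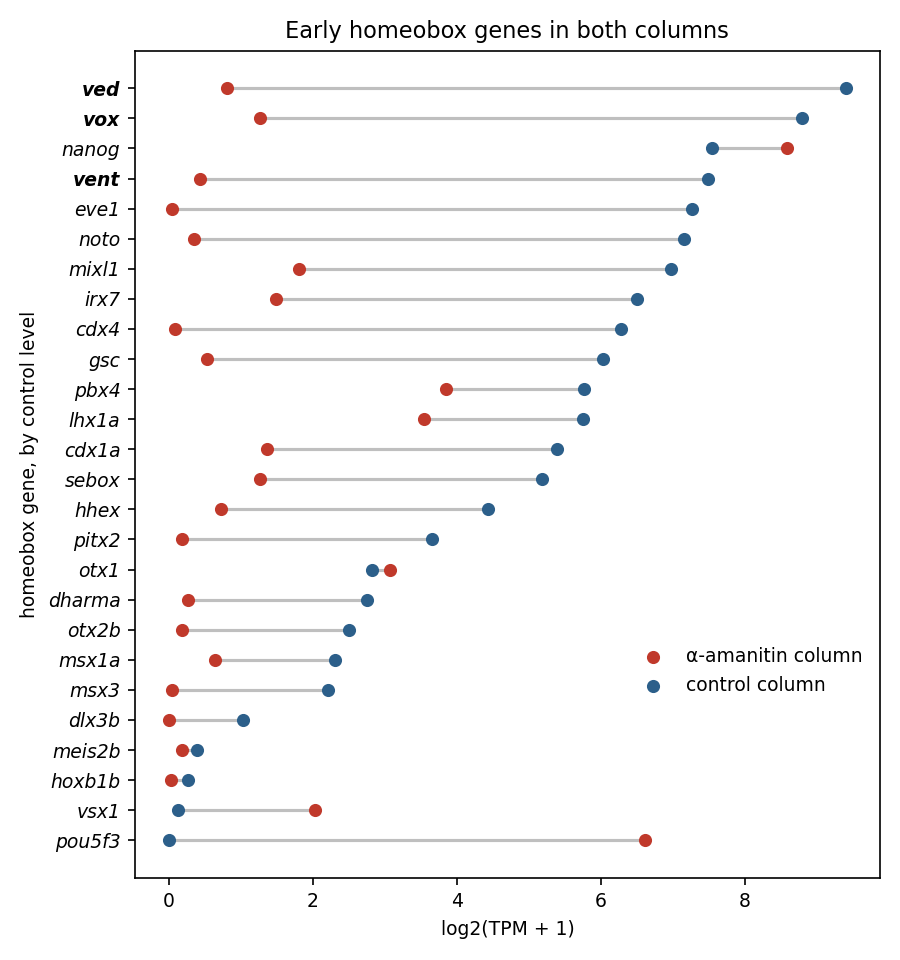
Level as log2(TPM + 1) of 26 early homeobox genes in the α-amanitin column (red) and the control column (blue), ordered by control level from the top, with ved, vox and vent in bold. The control points of the 3 genes are among the 4 highest, while their α-amanitin points lie at 1.27 or below. For pou5f3, vsx1, nanog and otx1 the α-amanitin point lies to the right.

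Genes of the dorsal programme, known targets of the 3 repressors among them, were also lower in the α-amanitin column. Of 17 dorsal genes, 17 were at least 2-fold lower, 7 of them at least 32-fold, with a median difference of −3.75. Of all RefSeq genes, 22.5% were at least 2-fold lower and 1.94% at least 32-fold. The 32-fold share was 17.9% among genes of at least 100 TPM in the control column. Of the 7, dkk1b (−5.42) has 1 α-amanitin model, so its row may lack reads. Among the known targets, gsc, an organizer homeobox repressor, had 0.447 TPM in the α-amanitin column, against 64.2 TPM in the control column (−5.49). For chrd, the secreted BMP antagonist Chordin, the values were 0.544 TPM in the α-amanitin column and 137 TPM in the control column (−6.48). The noto row had 0.270 TPM in the α-amanitin column, against 141 TPM in the control column (−6.80). The values of dharma, the dorsal repressor of vox and vent, were low in both columns, at 0.203 TPM in the α-amanitin column and 5.71 TPM in the control column (−2.48).

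The repressors and their targets gsc, chrd and noto were thus low together in the α-amanitin column and high together in the control column of whole embryos. The target dharma was an exception, since its control level was low too, although above its α-amanitin level. Besides chrd and noto, the most negative differences in the dorsal list were those of tbxta, the Brachyury gene of the notochord and margin (−7.73), and foxa3, a forkhead gene of the axial mesendoderm (−6.66). Only tbxta had a more negative difference than vent. The control level of ved was 4.93 times that of chrd and 10.5 times that of gsc on the TPM scale.

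Ventral and posterior genes, which are active on the same side of the embryo as the 3 repressors, had a median difference of −4.03 over 19 genes. Of these, 17 were at least 2-fold lower in the α-amanitin column, 6 of them at least 32-fold, and 1 was at least 2-fold higher. The shares among all RefSeq genes were 22.5% at least 2-fold lower, 1.94% at least 32-fold lower and 25.6% at least 2-fold higher. The T-box gene tbx16 of the ventrolateral margin had 0.464 TPM in the α-amanitin column, against 433 TPM in the control column (−8.21), so that its control level was close to that of vox and its α-amanitin level lower. For eve1 the values were 0.0283 TPM in the α-amanitin column and 152 TPM in the control column (−7.22). The caudal homeobox gene cdx4 (−6.19) and klf17, a Krüppel-like factor of the non-neural ectoderm and hatching gland (−5.80), followed. In the opposite direction, klf2a had 135 TPM in the α-amanitin column and 25.6 TPM in the control column (2.36).

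The BMP pathway, which maintains vox, vent and ved, was examined next. Of 27 pathway genes in the table, 16 were at least 2-fold lower in the α-amanitin column, 5 of them at least 32-fold. A further 1 was at least 2-fold higher and 10 were within 2-fold, and the median of the 27 was −1.51. Over all RefSeq genes, 22.5% were at least 2-fold lower, 1.94% at least 32-fold lower and 25.6% at least 2-fold higher. Among the pathway genes within 2-fold, bmpr2a, bmpr2b, acvr1l, smad9 and gdf6a had 1.12 TPM or less in both columns. At such levels the pseudocount of 1 TPM keeps differences small, so these rows do not show an unchanged level. The ligand genes were among the lower ones: bmp2b had 0.468 TPM in the α-amanitin column, against 88.4 TPM in the control column (−5.93). For bmp7a, whose product pairs with that of bmp2b, the values were 1.29 TPM in the α-amanitin column and 97.8 TPM in the control column (−5.43). With 1 α-amanitin model and 0 untreated models of bmp7a, its row may lack reads. The BMP target id1 (−5.43) and szl, which encodes the ventral Chordin protease inhibitor Sizzled (−5.10), were also far lower.

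Receptor and transducer genes differed among themselves. The type I receptor gene bmpr1ba had 71.9 TPM in the α-amanitin column, against 4.82 TPM in the control column (3.65), and is the 1 pathway gene past 2-fold in that direction. The transducer gene smad5, needed for the BMP response, had 1.83 TPM in the α-amanitin column, against 45.4 TPM in the control column (−4.04). Both have at least 2 long-read models in each library, so that their RefSeq rows may lack reads. Among the 17 pathway genes with no model in either library, 12 were at least 2-fold lower, 0 at least 2-fold higher and the median was −2.32. Of all 7230 RefSeq genes with no model in either library, 26.0% were at least 2-fold lower and 10.4% at least 2-fold higher, with a median of −0.16.

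Regulators that act upstream of the 3 repressors had differences in both directions. Of 17 such genes in the table, 11 were at least 2-fold lower and 3 at least 2-fold higher in the α-amanitin column, with a median of −1.20. Over all RefSeq genes, 22.5% were at least 2-fold lower and 25.6% at least 2-fold higher, so 3 of 17 is not more than that share. Of the 3 higher genes, sox19b, a maternal SoxB1 factor, had 364 TPM in the α-amanitin column and 77.4 TPM in the control column (2.22). The nanog row had 383 TPM in the α-amanitin column and 184 TPM in the control column (1.05; 0.58 under scaling, within 2-fold). The third was pou5f3, with the limit given above. Both sox19b and nanog have 2 α-amanitin models and 1 untreated model, so that limit applies to their rows as well.

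Of the other known activators, runx2b was low in both columns, at 2.80 TPM in the α-amanitin column and 0.971 TPM in the control column (0.95, within 2-fold). The ligand gene wnt8a had 8.08 TPM in the α-amanitin column, against 19.9 TPM in the control column (−1.20). With 2 α-amanitin models and 1 untreated model of wnt8a, its row may lack reads. The most negative differences were those of bmp2b and smad5, given above, of tcf7l1a, a transcriptional repressor of Wnt targets, and of the Wnt receptor gene fzd9b (−3.71). The tcf7l1a row was listed at 9.08e-07 TPM in the α-amanitin column and 13.1 TPM in the control column, and with 2 α-amanitin models and 1 untreated model it has the same limit as pou5f3, so its value is not read as a change of the gene. Long-read models named 9 of the 17 genes in each library, and among the 8 with no model in either, 5 were at least 2-fold lower and 0 at least 2-fold higher, beside the 26.0% and 10.4% given above for all genes with no model. With 8 genes, a count of 0 is close to what a share of 10.4% gives. The genes bmp2b, smad5, dharma and szl each stand in 2 of the 4 lists.

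**Figure D4:**
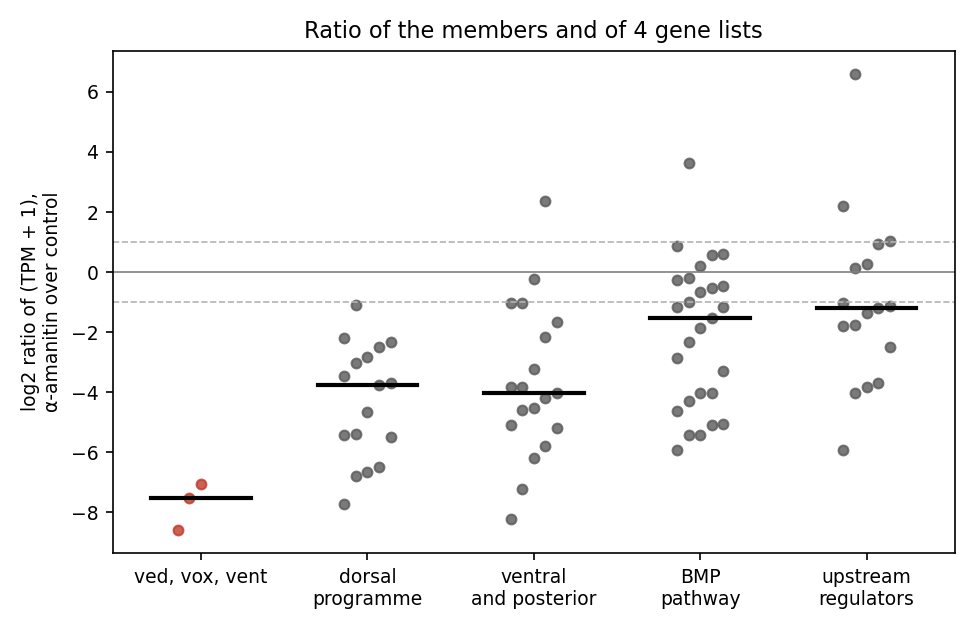
Log2 ratio of (TPM + 1), α-amanitin over control, of ved, vox and vent (red) and of the genes of 4 lists (grey, 1 point per gene). Black bars are medians, at −7.52 for the 3 members, −3.75 for the dorsal, −4.03 for the ventral and posterior, −1.51 for the BMP and −1.20 for the upstream list, and dashed lines mark 2-fold.

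Genes with the most similar pair of values were found as those nearest to each member in the plane of both log2(TPM + 1) columns, a likeness over 2 points only. Nearest to ved was afp4, at a distance of 0.17, followed by the apolipoprotein gene apoc1 (0.30), stm (0.32), the keratin gene krt92 (0.37) and ctsll (0.46). Nearest to vox was ccnd1, which encodes cyclin D1, at 0.09, followed by anxa1a (0.15), slc7a8a (0.21), LOC101887113 (0.25) and zic2b (0.25). Nearest to vent was lcp1, which encodes the actin-bundling protein L-plastin, at 0.12, followed by sox32 (0.18), fgfr4 (0.18), hnf4a (0.22) and si:dkey-85k7.7 (0.26). The members lay farther from each other than from these genes, at 0.77 between ved and vox, 1.55 between vox and vent and 1.96 between ved and vent.

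In the RefSeq gene order of assembly GRCz12tu, vent and vox are direct neighbours, and ved lies elsewhere. On the far side of vent, the microRNA gene mir202 was listed at 0 TPM in the α-amanitin column and at 1.39 TPM in the control column. The next genes outward on both sides of this pair (LOC141377017, LOC103912045 and kndc1) were not found among the named rows of the table. Beside ved, the histone variant gene h2az2b had 118 TPM in the α-amanitin column, against 390 TPM in the control column (−1.71), and purbb, one gene further, had 1.83 TPM in the α-amanitin column, against 9.55 TPM in the control column (−1.90). On its other side, the DNA polymerase gene polm had 24.9 TPM in the α-amanitin column and 7.54 TPM in the control column (1.60), and gnsb had 9.72 TPM in the α-amanitin column and was listed at 0 in the control column. The differences of the neighbouring rows with a value in both columns were smaller than that of ved. Those of polm and gnsb, like that of h2az2b, have at least 1 model in each library, so their rows may lack reads, and purbb, with no model, was lower in the α-amanitin column.

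The long-read tables held 0 models of ved, vox or vent among 13102 models of the α-amanitin library and 0 among 12752 models of the untreated library. A count of 0 allows a share of up to 0.0229% of the α-amanitin models and up to 0.0235% of the untreated models, for counting error alone. Since models are collapsed, 1 per structure, this limits structures and not RNA molecules. With no model of these genes in either library, no PB transcript that names them is known to share their reads, and their RefSeq rows are their only known rows in the expression table.

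The untreated library was then compared with the control column at the level of these genes. Of the 708 genes of at least 100 TPM in the control column, the α-amanitin library held a model for 73.6% (Wilson 95% interval 70.2 to 76.7) and the untreated library for 72.9% (69.5 to 76.03). Among the 127 of them that were, like the 3 repressors, at least 32-fold lower in the α-amanitin column, the α-amanitin library held a model for 19.7% (13.7 to 27.4) and the untreated library for 18.9% (13.04 to 26.6). Among the other 581 genes, the α-amanitin library held a model for 85.4% (82.3 to 88.01) and the untreated library for 84.7% (81.5 to 87.4). The 127 genes include the 3 repressors themselves, were chosen through their high control level and their difference, and are given as a description only.

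Of the 8 gastrula genes used as a stage check, 0 had a model in either library, while 7 of 7 maternal genes had one in each. The split at 32-fold was chosen after the members' values were seen. Since reads of genes with models can be assigned to PB transcripts, the RefSeq level used to choose these genes may itself be lower for genes with a model. The part of this in the shares was not tested.

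**Figure D5:**
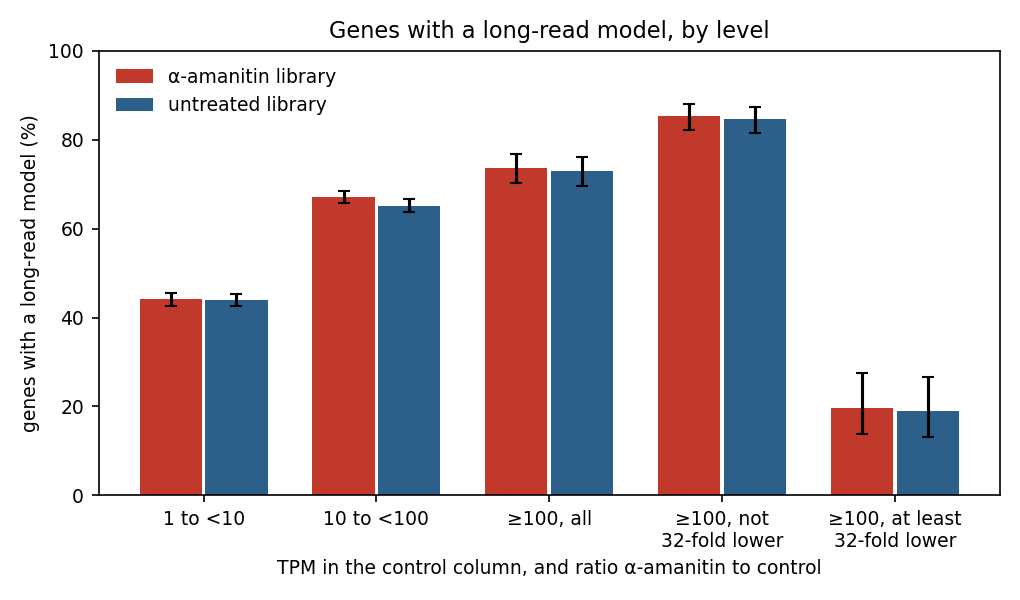
Percentage of RefSeq genes with at least 1 long-read model in the α-amanitin library (red) and the untreated library (blue), by TPM in the control column. For genes of at least 100 TPM, the bars are also split by whether the gene was at least 32-fold lower in the α-amanitin column. Error bars are Wilson 95% intervals, and genes under 1 TPM are not plotted. The bars of the last set stand at 19.7% for the α-amanitin library and 18.9% for the untreated library.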

How the data were processed

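Per the labels' series design, the authors built the long-read models with IsoSeq, placed them on GRCz10 with GMAP and classed them against a reference with Cuffcompare. The deposited expression table is in log2(TPM + 1), read from the values, since undoing the logarithm and subtracting 1 gives column totals of 1000000. The submitters' processing notes name kallisto, with no role; its version and the reads quantified are not given in the sources used here. TPM keeps no depth. Columns were matched to groups by name, and 0 columns of per-sample values were left unused.

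Of 15936 RefSeq transcripts, 15455 (97.0%) received a symbol, from the RefSeq gene table of GRCz12tu or else the Cuffcompare tables, and transcripts of 1 gene were summed to 14777 genes. PB transcripts were not joined to genes, so their 58.8% of the TPM (α-amanitin column) and 55.6% (control column) lie outside the gene values. Differences are log2(TPM + 1), α-amanitin minus control, with a pseudocount of 1 TPM and no filter. No test was made, with 1 library per group. Named genes are the members, the genes of each list with up to 4 of the largest differences past 2-fold in each direction at 1 TPM or more, known regulators and targets, the 5 nearest genes and 2 neighbours on each side. Members and lists were chosen with earlier results of these data known. The ratio computation was tested on simulated data. Python 3.11.15, numpy 2.4.6, pandas 2.3.3, scipy 1.17.1 and matplotlib 3.10.9 were used.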

Additional observations from a re-analysis of the deposited data

How the results depend on the processing

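None of the 55 values under alternatives changed sign, but the counts and shares among them cannot do so. Of the 55, 14 stayed in place (counts within 1.5 times, shares within their interval, and values that the alternative cannot alter) and 41 moved. A pseudocount of 0.1 TPM gave differences of −9.64 (ved), −8.19 (vox) and −8.63 (vent; also the median of the 3), and list medians of −5.54 (dorsal), −4.84 (ventral and posterior), −2.89 (BMP) and −1.29 (upstream). It thus placed vent before vox, as did the ratio without a pseudocount, chosen after seeing the data, with −9.83 (ved), −8.99 (vent) and −8.29 (vox). Scaling moved every value by the same constant, to −9.06 (ved), −7.98 (vox and the median of the 3) and −7.51 (vent), with list medians of −4.21 (dorsal), −4.49 (ventral and posterior), −1.98 (BMP) and −1.67 (upstream). RefSeq rows alone, each column rescaled to a total of 1000000, gave −9.08 (ved), −7.81 (vox and the median of the 3) and −7.76 (vent), list medians of −4.54 (dorsal), −4.28 (ventral and posterior), −1.65 (BMP) and −1.15 (upstream), and 4099 transcripts lower and 4509 higher, with fewer transcripts counted. A minimum of 1 TPM in either column gave medians of −4.11 (ventral and posterior) and −2.32 (BMP), with fewer genes. Leaving out genes with a long-read model, also chosen after seeing the data, gave −4.20 (dorsal), −4.20 (ventral and posterior), −2.32 (BMP) and −1.25 (upstream). A 4-fold threshold left 3738 transcripts lower and 4965 higher. The share of genes of at least 100 TPM with a model was 66.0% (α-amanitin library) and 64.4% (untreated library) with class codes = and j, and 69.2% (α-amanitin library) and 66.9% (untreated library) with models of at least 500 bases, since fewer models count. No paired analysis was possible because each group has 1 library. The unknown depth of the table limits what the α-amanitin values of the members, all under 2 TPM, can show.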

Other observations

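Of the 127 genes of at least 100 TPM in the control column that were at least 32-fold lower in the α-amanitin column, 35 had a long-read model. These were 14 genes with models in both libraries, 11 in the α-amanitin library alone and 10 in the untreated library alone. The examples that follow were chosen after their values were seen. In the untreated library alone, 1 model each was found for the small heat shock protein gene hspb1 (0.944 TPM in the α-amanitin column, 1738 TPM in the control column), for the keratin genes krt4 (1.31 TPM with α-amanitin, 1255 TPM in control) and krt5 (0.688 TPM with α-amanitin, 246 TPM in control), and for mych, a relative of the Myc genes (6.48 TPM with α-amanitin, 468 TPM in control). In the α-amanitin library alone, 1 model each was found for the keratin gene krt8 (8.75 TPM in the α-amanitin column, 1184 TPM in the control column), cst3 (6.74 TPM with α-amanitin, 464 TPM in control) and the SoxC gene sox11a (1.97 TPM with α-amanitin, 163 TPM in control). The library that held a model was thus not always the one named like the column with the higher level.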
